A study of Mus musculus with 5 samples.

Results

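The Hox genes described here are all rows of the deposited gene tables whose symbol is Hoxa, Hoxb, Hoxc or Hoxd followed only by a number. The rule found 39 rows among 29818, of which 11 lie in the Hoxa, 10 in the Hoxb, 9 in the Hoxc and 9 in the Hoxd cluster. They were counted by single cell RNA-Seq in the cartilage ends on both sides of the knee, the distal femur and the proximal tibia, of 5 littermate pups. Their strain is C57BL/6J by the labels, and by the study's methods the Col2a1-Cre line was made on a B6SJLF1 background and crossed to C57BL/6J afterwards. Libraries 1 and 2 labelled WT came from wild type pups. Libraries 1, 2 and 3 labelled mutant came from pups with a conditional Trpv4 p.R594H knock-in allele. Col2a1-Cre, a driver active in chondrocytes, switches the allele on, and in which other cells it was switched on was not tested. Which alleles the wild type littermates carry was not stated in the labels. Each pup gave 1 library of femoral and tibial cells together, and the label does not say which of the 2 bones a cell came from. The age was postnatal day 5 by the sample labels and day 3 by the design text of the series.

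Hox genes encode homeodomain transcription factors that give cells of the embryo their address along the body and along the limb. They lie in 4 clusters, and the order of the genes in a cluster follows the position at which they act. In the hindlimb the group 10 genes are known for patterning the thigh, the group 11 genes for the lower leg and the group 13 genes for the foot. Cells of the skeleton keep much of this code after birth. The share of group 11 among group 10 and 11 UMIs was therefore used as a readout of position along the limb, although whether it reads position in these cells was not tested. A UMI is a molecular tag that marks 1 captured transcript, and levels are given in CPM, the UMIs of a gene scaled to a fixed total of UMIs of the same cells, without division by gene length because each captured molecule is tagged once.

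In GRCm38 the Hoxa cluster spans chr6:52155590-52260880 on the minus strand, the Hoxb cluster chr11:96194316-96368256, the Hoxc cluster chr15:102921103-103036852 and the Hoxd cluster chr2:74668310-74765142, all 3 on the plus strand. The annotation (GENCODE M21) overlaps 11 of the 39 gene bodies with another member, among them Hoxa3 with Hoxa4, Hoxa5 and Hoxa6, and Hoxc5 with Hoxc6, Hoxc8, Hoxc9 and Hoxc10. Exons share bases between Hoxc5 and Hoxc10 and between Hoxd3 and Hoxd4, so the counts of these 4 genes are uncertain.

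Promoter windows from RefSeq (GRCm38.p6) were at hand for 22 of the 39 genes. The 250 bases before the start are shown for the pair of Hoxd genes with the widest spread between joint tissues, for a pair of Hoxb genes of the vessel wall and nerve, and for the distal genes Hoxa11 and Hoxa13. Each runs 5′ to 3′ on the strand of its gene. Capitals mark matches on either strand to TGATNNAT, a site that Hox proteins bind together with the cofactor Pbx, to the TATAAA box and to the CCAAT box. The last 2 motifs are common promoter elements, and no match of one overlapped a match of another.
Hoxd8, chr2:74704365-74704614, plus strand: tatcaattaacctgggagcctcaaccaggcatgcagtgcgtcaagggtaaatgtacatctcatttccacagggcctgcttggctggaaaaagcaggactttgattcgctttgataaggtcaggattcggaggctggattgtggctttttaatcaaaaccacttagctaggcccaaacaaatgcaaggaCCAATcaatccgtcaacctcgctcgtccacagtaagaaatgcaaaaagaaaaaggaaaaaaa
Hoxd9, chr2:74697513-74697762, plus strand: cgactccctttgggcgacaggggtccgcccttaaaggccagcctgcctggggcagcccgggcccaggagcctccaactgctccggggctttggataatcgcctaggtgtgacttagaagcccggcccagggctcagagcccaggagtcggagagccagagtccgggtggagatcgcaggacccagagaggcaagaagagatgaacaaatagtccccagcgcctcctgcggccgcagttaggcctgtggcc
Hoxb4, chr11:96318017-96318266, plus strand: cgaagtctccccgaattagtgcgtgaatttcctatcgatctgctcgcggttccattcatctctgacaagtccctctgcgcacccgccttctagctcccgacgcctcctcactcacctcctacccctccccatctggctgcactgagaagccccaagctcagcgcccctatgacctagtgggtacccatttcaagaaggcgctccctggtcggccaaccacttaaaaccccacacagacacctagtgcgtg
Hoxb8, chr11:96281655-96281904, plus strand: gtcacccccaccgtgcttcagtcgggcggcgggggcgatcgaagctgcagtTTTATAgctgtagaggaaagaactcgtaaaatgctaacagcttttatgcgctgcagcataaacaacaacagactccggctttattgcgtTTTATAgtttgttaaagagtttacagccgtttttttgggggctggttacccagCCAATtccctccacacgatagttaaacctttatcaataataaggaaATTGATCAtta
Hoxa11, chr6:52245811-52246060, minus strand: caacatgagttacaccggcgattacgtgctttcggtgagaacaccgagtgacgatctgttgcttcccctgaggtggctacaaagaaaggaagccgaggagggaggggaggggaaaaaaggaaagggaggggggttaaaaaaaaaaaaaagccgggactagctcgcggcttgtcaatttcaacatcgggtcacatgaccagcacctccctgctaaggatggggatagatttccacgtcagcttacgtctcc
Hoxa13, chr6:52260881-52261130, minus strand: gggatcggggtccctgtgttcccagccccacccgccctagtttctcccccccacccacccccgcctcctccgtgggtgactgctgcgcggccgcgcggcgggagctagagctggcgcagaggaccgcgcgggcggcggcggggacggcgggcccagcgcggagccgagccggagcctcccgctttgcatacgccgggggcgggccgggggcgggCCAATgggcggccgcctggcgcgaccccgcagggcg
The windows differed in base composition, with 80% G and C and 35 CG pairs in Hoxa13 against 44.4% and 6 in Hoxd8. Of the 24 Hox windows (some genes have more than 1 start), 4 held TGATNNAT (16.7%, against 7.68% of all 32851 windows), 4 held TATAAA (16.7% against 12.4%) and 14 held CCAAT (58.3% against 33.8%).

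The files held 117746735 to 183322632 UMIs per library, and 82516 cells passed the filters, 13814 to 19133 per library. The median was 8521 and 9261 UMIs per cell in both WT libraries and 6000 to 7016 in the mutant ones, so depth moved with the label. Pairs of libraries shared 3 to 7 cell barcodes. Xist, the transcript of the inactive X chromosome, had a UMI in 89.8% and 88.4% of cells of mutant libraries 1 and 2 and in at most 0.174% of cells of the other 3, where the Y-linked Ddx3y was found in 66.3% to 70.1% of cells. Sex therefore differed between the groups in part. Trpv4 itself stood at 90.3 to 175 CPM. By the paper, Cre takes a cDNA fragment out of the knock-in allele so that the mutated exon is expressed. Whether this changes the transcript count was not tested, so the Trpv4 level did not check the labels. Cells were clustered without the Hox rows, and clusters were given the name of the fixed marker list they matched. The names below (resting, articular and so on) stand for likeness to those markers, and 4 clusters with 14962 cells stayed unnamed. The labels call the cells chondrocytes, but classes like perichondrial, tendon or ligament, synovial, bone, vessel, nerve, muscle and blood cells were also present.

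Over all cells the 39 rows held 227633 UMIs, or 278 to 320 CPM per library. A row was present in every library for 37 genes, while Hoxb1 (3 UMIs) and Hoxd12 (2 UMIs) were listed in fewer. The Hoxc cluster took 52.1% ± 2.81 (SD, n = 5) of Hox UMIs and Hoxa 37.3%, against 9.07% for Hoxd and 1.58% for Hoxb (means of 5 libraries). Hoxc10 led every other row over all cells at 91.5 CPM, followed by Hoxa9 at 38.9, Hoxa10 at 38.4 and Hoxc8 at 22.3 CPM. At the other end 20 rows were under 1 CPM over all cells and 8 had under 100 UMIs in all. Of the 39, 17 reached 20 CPM in a named class. The rest that belong to groups 1 to 8 peaked at 0.0117 (Hoxb1) to 14.4 CPM (Hoxc6) in their highest class.

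**Figure D1:**
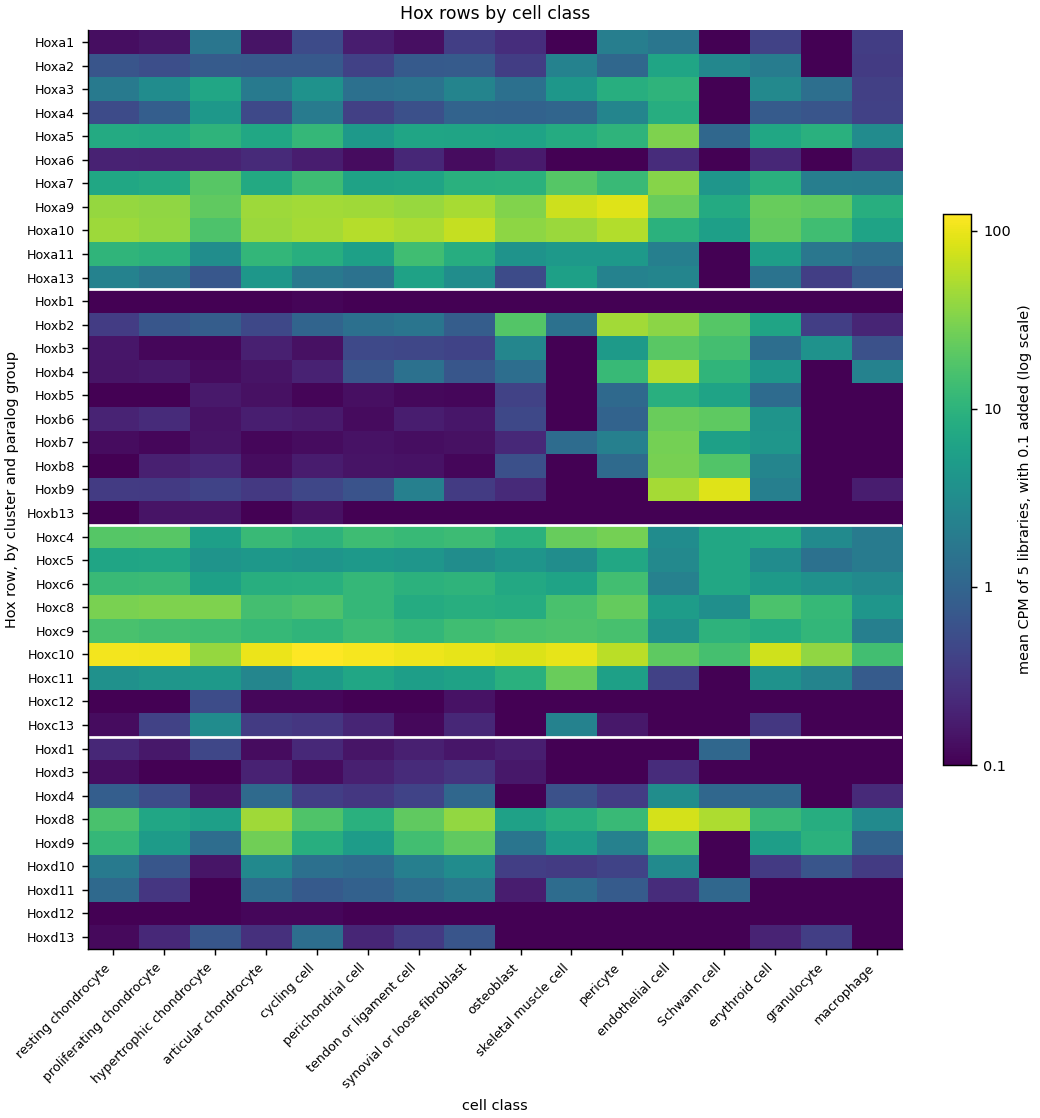
Mean level of each of the 39 Hox rows (CPM, mean of 5 libraries, colour on a log scale after adding 0.1) in 16 cell classes, with white lines between the clusters. Hoxc10, Hoxa9 and Hoxa10 are bright from resting chondrocytes to pericytes, the Hoxb rows are dark except in osteoblasts, pericytes, endothelial, Schwann and erythroid cells, and macrophages are dim throughout.

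Group 10 took the largest share of the Hox UMIs in cartilage and its sheath, with 45.1% in resting chondrocytes, 54.3% in perichondrial cells and 28.4% in hypertrophic chondrocytes. Hoxc10 stood in resting chondrocytes at 120, 108, 108, 101 and 105 CPM in WT 1 and 2 and mutant 1, 2 and 3, the order in which all 5 libraries are listed from here on. Its level was lower in hypertrophic chondrocytes, at 42.0, 39.9, 36.5, 39.3 and 44.9 CPM. No library overlapped between these classes. A level in CPM is a share of the UMIs of a class, here and for the rows below. Hypertrophic cells had a median of 26464 UMIs against 5555 in resting cells, so a lower CPM need not mean fewer molecules per cell. The hypertrophic class, named after cells that swell before bone replaces them, had a lower Hoxc10 level than resting, proliferating or articular chondrocytes in every library. Most of its cells were in cluster 20, with 1716 cells, led by Smpd3 and Panx3 without Col10a1 among its leading genes. Hoxc10 stood at 42.4 CPM there and at 24.6 CPM in cluster 34, with 300 cells, which was led by Col10a1 and Ihh. Hoxa10, a partner of Hoxc10 in thigh patterning, read 44.3, 55.8, 45.9, 38.1 and 33.3 CPM in resting and 16.2, 19.2, 15.5, 16.2 and 17.7 CPM in hypertrophic chondrocytes. It was highest in synovial or loose fibroblasts, at 68.2, 63.4, 64.9, 60.0 and 72.8 CPM. Hoxa9 peaked elsewhere, in pericytes of the vessel wall, at 84.6, 108, 93.0, 70.2 and 81.4 CPM. The pericyte range did not overlap that of resting chondrocytes, 35.8 to 42.1 CPM. The mean of Hoxc9 ran in the skeletal classes from 11 CPM in tendon or ligament cells to 15.9 CPM in resting chondrocytes.

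Group 11 and 13 genes, the lower leg and foot end of the code, were at low levels in most classes, Hoxc11 in skeletal muscle cells being above 20 CPM. Hoxa11 read 15.5, 15.6, 10.2, 8.20 and 19.3 CPM in tendon or ligament cells, where its mean was highest, and 8.98, 11.6, 13.7, 8.58 and 9.26 CPM in resting chondrocytes. In perichondrial cells, the sheath around the cartilage, it was at 5.33, 6.95, 6.17, 4.09 and 5.74 CPM, below every resting value. Hoxc11 had another order among the classes. Its mean was 24.6 CPM in skeletal muscle cells (17.5 to 36.9 over libraries), 9.15 in osteoblasts (6.91 to 14.1), 6.61 in perichondrial cells (5.52 to 7.87), 3.59 in resting (3.33 to 3.91) and 2.54 in articular chondrocytes (1.66 to 3.53). The muscle class was small, with 11 to 171 cells per library and 66 Hoxc11 UMIs in all. Hoxd11 did not pass a mean of 1.63 CPM in any class, and Hoxc12 and Hoxd12 together had 37 UMIs in the series.

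Hoxa13 was the only group 13 gene above a mean of 4 CPM in a named class. It read 6.32, 5.32, 4.93, 2.78 and 10.5 CPM in tendon or ligament cells and 4.07, 4.56, 4.10, 3.43 and 5.03 CPM in articular chondrocytes. The resting values were 1.84, 2.62, 3.31, 1.09 and 2.29 CPM, all lower than the articular ones. Within the tendon or ligament class the Hoxa13 level was 9.30 CPM in cluster 22, which heat shock genes led. It was 4.82 CPM in cluster 1 and 0 in cluster 30. The articular clusters ran from 3.11 to 5.62 CPM. Resting clusters 5, 19 and 36 stood at 1.69, 3.13 and 5.88 CPM, so single clusters of these 2 classes overlapped. Cluster 36 had 183 cells. Hoxc13 was found chiefly in hypertrophic chondrocytes, with a mean of 3.07 CPM, and Hoxd13 reached 1.20 CPM in cycling cells. Hoxb13 had 31 UMIs in all.

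Hoxd8 and Hoxd9 graded across the joint. Hoxd8, a gene of the middle of the Hoxd cluster between Hoxd4 and Hoxd9, read 14.8, 22.4, 20.9, 9.40 and 12.2 CPM in resting chondrocytes. In articular chondrocytes, which line the joint surface, the values were 42.6, 56.4, 53.5, 34.0 and 35.2 CPM. Every articular value lay above every resting value. Within the classes the level varied between clusters, from 26.4 CPM (cluster 6, with 4221 cells) to 74.3 CPM (cluster 13, led by Thbs4 and Spon2) in the articular clusters. The resting clusters stood at 12 and 21.7 CPM, and at 43.1 CPM in cluster 36, with 183 cells whose best marker score was that of articular chondrocytes. Synovial or loose fibroblasts, with 33.5 to 45.0 CPM, overlapped the articular range. Hoxd9 followed the same order, with 24.6, 38.9, 31.2, 17.9 and 20.8 CPM in articular against 11.6, 15.6, 14.6, 6.13 and 9.89 CPM in resting chondrocytes. Deeper in the growth plate both were lower. Hoxd8 had a mean of 6.64 CPM in proliferating and 5.55 CPM in hypertrophic chondrocytes, and Hoxd9 of 4.95 and 1.17 CPM. For Hoxd9 the hypertrophic range (0.736 to 1.74 CPM) lay below the proliferating range (2.64 to 5.90 CPM). In both rows mutant library 2, the library of lowest median depth, was the lowest of the 5 in resting and articular chondrocytes.

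Hoxc8 ran the other way. It read 32.3, 31.9, 30.7, 25.7 and 27.0 CPM in resting, and 29.9, 31.6, 32.5, 32.1 and 28.9 CPM in proliferating chondrocytes. In articular chondrocytes it was at 17.6, 16.4, 13, 13.1 and 12.8 CPM, with no overlap, and in tendon or ligament cells at 12.5, 6.65, 5.32, 6.91 and 8.23 CPM. Its hypertrophic values spread from 16.6 to 50.3 CPM, the lowest in mutant 1 and the highest in mutant 3. Hoxc4 and Hoxc6, neighbours in the same cluster, had resting means of 18.8 and 12.5 CPM and articular means of 12.4 and 8.52 CPM. Hoxa5 and Hoxa7 of the Hoxa cluster had higher means in hypertrophic than in resting chondrocytes, Hoxa7 with means of 19.3 and 6.93 CPM and no overlap between libraries, Hoxa5 with 10.1 and 7.64 CPM and overlapping ranges.

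**Figure D2:**
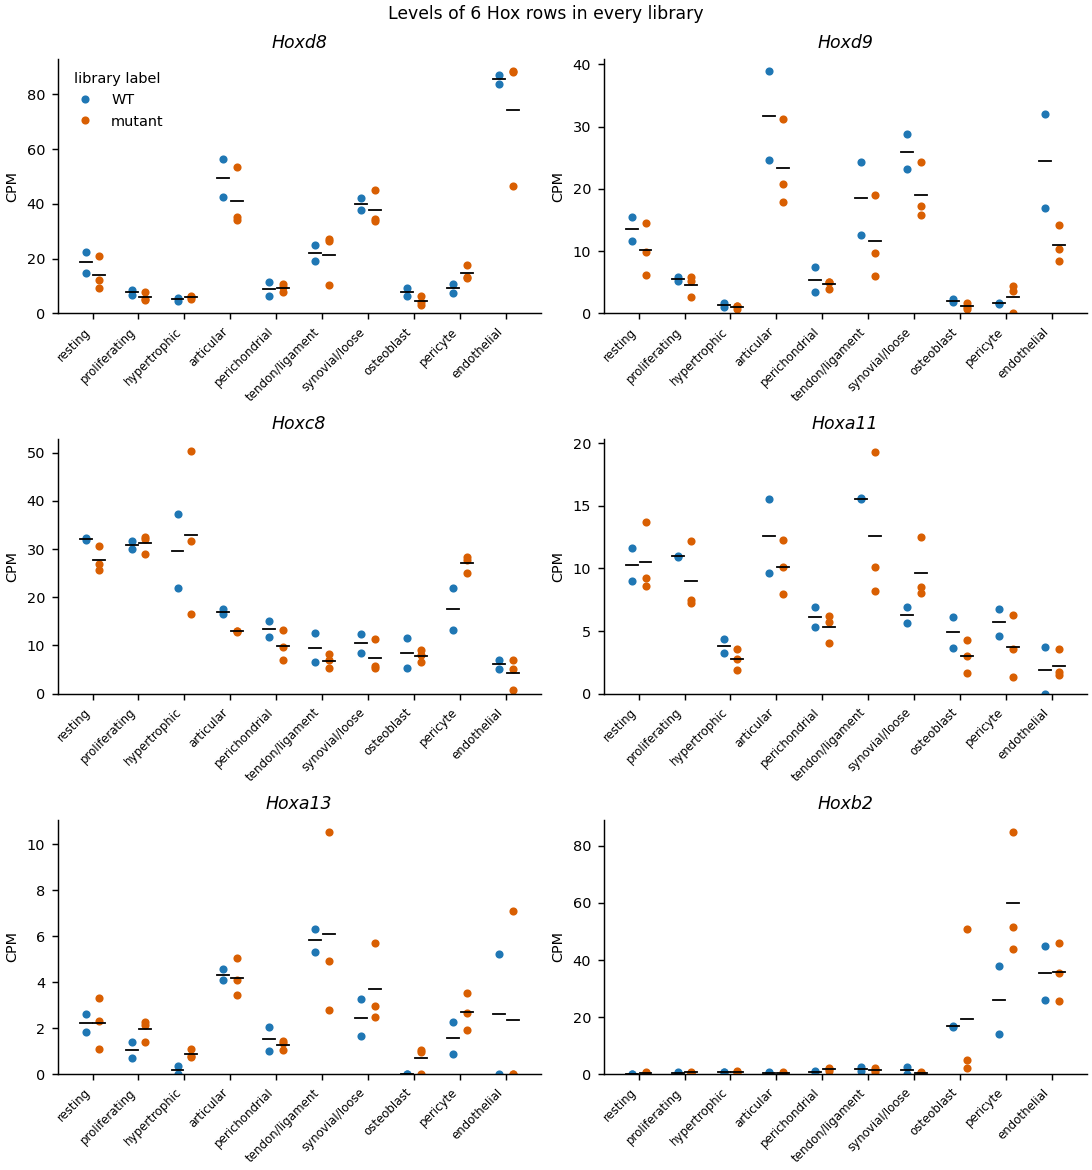
Level in CPM of 6 Hox rows in each library (points, WT blue and mutant orange) with the mean of each label (black bars), in 10 cell classes. Hoxd8 and Hoxd9 rise from resting to articular chondrocytes while Hoxc8 falls, Hoxa13 has its highest value in tendon or ligament cells of mutant 3 (10.5 CPM), and Hoxb2 is near 0 outside osteoblasts, pericytes and endothelial cells.

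Contrasts of 3 cell classes with resting chondrocytes were tested on UMI sums per pup and class with the pup as a block (edgeR quasi-likelihood test, Benjamini-Hochberg adjustment over all rows tested, threshold 0.05). The classes were made from the same cells, with the Hox rows left out of the clustering, and many rows of the genome differed between them, so each count is given beside that over all rows.
Between perichondrial cells and resting chondrocytes 19 of the 39 rows passed the filter on low counts. Of these, 5 were called higher, where 26.9% of all 13434 rows were, and 7 lower, where 28.4% were. Their median log2 fold change was -0.35, against -0.02 over all rows. Higher were Hoxa9 (0.28 ± 0.06, log2 fold change ± SE), Hoxa10 (0.48 ± 0.08), Hoxc10 (0.18 ± 0.05), Hoxc11 (0.98 ± 0.15) and Hoxb2 (2.31 ± 0.50). Hoxb2, counted among the 5, passed the filter only through perichondrial cells, so the filter set the direction of its call. Hoxc10 lost the call without the pup block (adjusted p = 0.0876), with DESeq2 (adjusted p = 0.0787) and without WT library 2. Lower were Hoxa5, Hoxa11 (-0.78 ± 0.13, adjusted p = 7.91e-05), Hoxc4, Hoxc5, Hoxc8 (-1.26 ± 0.12, adjusted p = 1.5e-06), Hoxd8 (-0.69 ± 0.15) and Hoxd9 (-1.11 ± 0.16, adjusted p = 1.98e-05). Hoxc4 lost the call with DESeq2 and without WT library 2. Hoxc5 lost it without the pup block (adjusted p = 0.0674), with DESeq2 and on leaving out any library other than mutant 1. The falls of Hoxd8 and Hoxd9 were not shared by all clusters of the class. Perichondrial cluster 9, with 3425 cells, stood at 3.86 CPM for Hoxd8 and 1.54 for Hoxd9. Clusters 12 and 33 of the same class stood at 15.5 and 20.7 CPM for Hoxd8 and 9.33 and 12 CPM for Hoxd9, near the 2 main resting clusters (12 and 21.7 CPM for Hoxd8, 8.72 and 16.0 CPM for Hoxd9). Other calls varied between clusters too. In clusters 9, 12 and 33, Hoxa11 stood at 4.31, 8.09 and 4.52 CPM and Hoxa5 at 3.58, 6.59 and 3.39 CPM. Hoxa10 stood there at 57.1, 57.1 and 27.9 CPM. Resting clusters 5 and 19 read 8.28 and 14.8 CPM for Hoxa11, 5.41 and 13.1 for Hoxa5, and 31.3 and 72.4 for Hoxa10. The clusters were not tested one by one. The 2 group 11 genes called moved in opposite directions, Hoxa11 lower and Hoxc11 higher in perichondrial cells.

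Tendon or ligament cells, which hold the force-bearing fibres at the joint, differed from resting chondrocytes in 13 of 22 rows tested, 10 higher (29.8% of all 13638 rows) and 3 lower (29.9%), with a median log2 fold change of 0.35 against -0.02 over all rows. The Hoxa genes from group 9 on were called higher, Hoxa9 by 0.28 ± 0.09, Hoxa10 by 0.44 ± 0.12, Hoxa11 by 0.62 ± 0.18 and Hoxa13 by 1.66 ± 0.22 (adjusted p = 3.23e-05). Hoxc11 was higher by 0.78 ± 0.19 and Hoxd8 by 0.67 ± 0.12. Hoxc8 was the row with the largest fall, -1.65 ± 0.14 (adjusted p = 8.63e-07), beside smaller ones of Hoxc4 and Hoxc9. Hoxc4 lost the call with DESeq2 (adjusted p = 0.0602) and without mutant library 1 (edgeR, adjusted p = 0.0597). The call of Hoxc9 was lost without the pup block (adjusted p = 0.136) and that of Hoxc10 too (adjusted p = 0.0738), and they kept it under only 4 and 5 of 11 alternatives. Hoxb2 (2.64 ± 0.56) and Hoxb9 (3.25 ± 0.38) were higher from very low levels, Hoxb9 at 2.74, 1.22, 1.58, 2.91 and 2.11 CPM against at most 0.545 CPM in resting chondrocytes. Hoxb4 was called as well, from 2 UMIs in all resting chondrocytes to a mean of 1.34 CPM, which lay below its mean in macrophages. Hoxb2, Hoxb4 and Hoxb9 passed the filter on low counts only through tendon or ligament cells, so the filter set the direction of their calls. They are counted among the 10 rows called higher and in the median. Without WT library 1 the number called was 8, and Hoxa9, Hoxa10 and Hoxa11 were among the calls lost, as they also were at the coarser clustering (Leiden resolution 0.8). The class was made of 3 clusters. Cluster 22, with 1259 cells (340, 80, 237, 364 and 238 per library), was led by heat shock and immediate early genes (Hspa1b, Hspa1a, Hsph1, Dnajb1, Egr1) and not by tendon genes. It stood at 71.1 CPM for Hoxa9, 89.1 for Hoxa10 and 26.0 for Hoxa11, against 33.9, 41.2 and 10.8 CPM in the largest cluster of the class, cluster 1, which was led by Kera and Tnmd. The latter values were close to the resting means of 40.2, 43.5 and 10.4 CPM. Without cluster 22, an alternative added after seeing the data, Hoxa9 (0.10 ± 0.09, adjusted p = 0.356), Hoxa10 (0.27 ± 0.11, adjusted p = 0.0611) and Hoxa11 (0.37 ± 0.26, adjusted p = 0.243) were not called. Hoxa13 still was (1.53 ± 0.25, adjusted p = 0.000141), as were the other 9 rows, and Hoxa5 (-0.48 ± 0.16) and Hoxd9 (0.63 ± 0.20) were called in addition.

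Articular chondrocytes differed from resting chondrocytes in 11 of 19 rows tested, 4 higher (23.5% of all 13756 rows) and 7 lower (22.7%), with a median log2 fold change of -0.03 against -0.00485 over all rows. The calls split by cluster. Hoxd8 (1.48 ± 0.07, adjusted p = 1.61e-13), Hoxd9 (1.19 ± 0.08, adjusted p = 7.36e-11), Hoxd10 (0.66 ± 0.22) and Hoxa13 (0.94 ± 0.19) were higher. All 7 lower rows were Hoxc genes, namely Hoxc4 (-0.61 ± 0.09), Hoxc5 (-0.58 ± 0.14), Hoxc6 (-0.58 ± 0.10), Hoxc8 (-1.03 ± 0.07, adjusted p = 1.3e-10), Hoxc9 (-0.43 ± 0.09), Hoxc10 (-0.12 ± 0.04) and Hoxc11 (-0.54 ± 0.19). The remaining Hoxc rows did not pass the filter. Hoxc10, Hoxc11 and Hoxd10 lost the call without the pup block (adjusted p = 0.277, 0.0555 and 0.0639). In cluster shares, Hoxc took 57.4% and Hoxd 9.01% of Hox UMIs in resting chondrocytes, against 44.3% and 21.5% in articular chondrocytes.

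**Figure D3:**
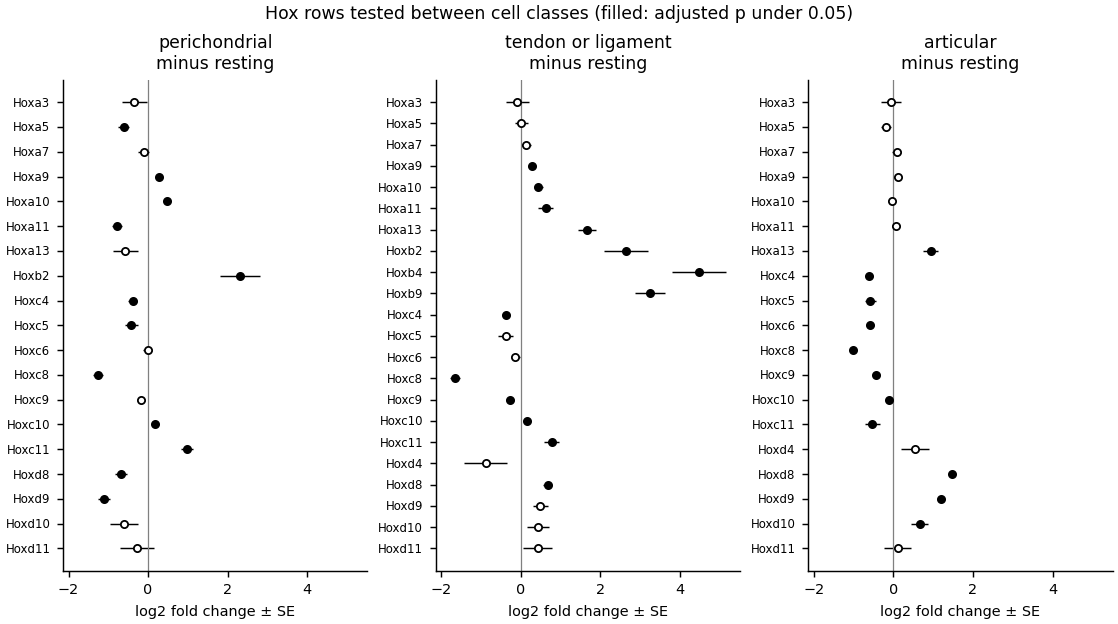
Log2 fold change ± SE of each tested Hox row between perichondrial, tendon or ligament and articular cells and resting chondrocytes (filled points, adjusted p under 0.05). In the articular panel the filled Hoxc points lie left of 0 and Hoxd8, Hoxd9, Hoxd10 and Hoxa13 to the right, and in the tendon panel Hoxa9 to Hoxa13 lie right of 0.

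The Hoxb cluster was nearly silent in cartilage and marked other cells of the dissection. In chondrocytes and fibroblast classes its share of Hox UMIs was at most 1.72% (tendon or ligament cells), against 47.8% in endothelial cells, which line the vessels, 59.7% in Schwann cells of the nerve and 16.2% in pericytes. In osteoblasts the mean was 8.38%, but the libraries stood at 6.13%, 8.44%, 22.6%, 2.61% and 2.14%, so mutant 1 carried it and mutant 3 lay within the tendon or ligament range of 0.992% to 2.24%. Hoxb4 read 54.9, 46.1, 43.4, 76.3 and 56.7 CPM in endothelial cells and at most 0.136 CPM in resting chondrocytes. Endothelial cells also had means of 24.3 CPM for Hoxb6, 27.7 for Hoxb7, 28.9 for Hoxb8, 48.0 for Hoxb9 and 20.2 for Hoxb3, together with the highest Hoxd8 (78.8 CPM), Hoxa5 (30.9 CPM) and Hoxa7 (33.8 CPM) of any class. Hoxc10 was at 21.3 CPM there. Hoxb9 was highest in Schwann cells, at 85.0, 59.1, 68.6, 134 and 90.0 CPM, from 53 UMIs in 106 cells, and Hoxa11, Hoxa13, Hoxc11 and Hoxd9 had no UMI in them.

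Hoxb2 was the leading Hoxb gene of bone and vessel wall. It read 37.8, 14, 43.8, 51.6 and 84.9 CPM in pericytes and 16.5, 16.9, 50.9, 4.88 and 2.13 CPM in osteoblasts. The osteoblast values spread widely between libraries, from 2.13 in mutant 3 to 50.9 in mutant 1, the library with 756 of the 1766 osteoblasts. All 5 nevertheless lay above the resting range of 0 to 0.624 CPM. Hoxb5 to Hoxb9 stayed at or below a mean of 0.471 CPM in osteoblasts.

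Macrophages, blood-derived cells that should lack a limb code, were taken as the comparison for background, and whether their Hox UMIs came from free RNA was not tested. Hoxb4 stood at a mean of 2.24 CPM in them, above the resting maximum of 0.136 CPM. Their Hox rows summed to 55, 62, 59, 52 and 60 CPM, against 357, 373, 359, 301 and 315 CPM in resting chondrocytes. After thinning each cell to 3000 UMIs and leaving out shallower cells (0 and 21 of all cells in WT 1 and 2, against 691, 1162 and 429 in mutant 1, 2 and 3), 12% ± 1.37 of macrophages held any Hox UMI, against 59.2% ± 3.08 of resting chondrocytes, 44.2% ± 2.91 of hypertrophic chondrocytes and 77.9% ± 4.81 of endothelial cells (mean ± SD over 5 libraries). Before thinning the shares were 24.5%, 77.6%, 96.7% and 93.0%, at median depths of 7588, 5555, 26464 and 7168 UMIs per cell. The hypertrophic cells, the deepest of all, therefore ranked high before and low after thinning. For Hoxc10 the thinned shares were 26.2% in resting chondrocytes and 2.11% in macrophages, and for Hoxd8 12% in articular chondrocytes, 4.54% in resting chondrocytes and 0.701% in macrophages. A level in CPM of a class cannot tell fewer expressing cells from less RNA per cell.

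**Figure D4:**
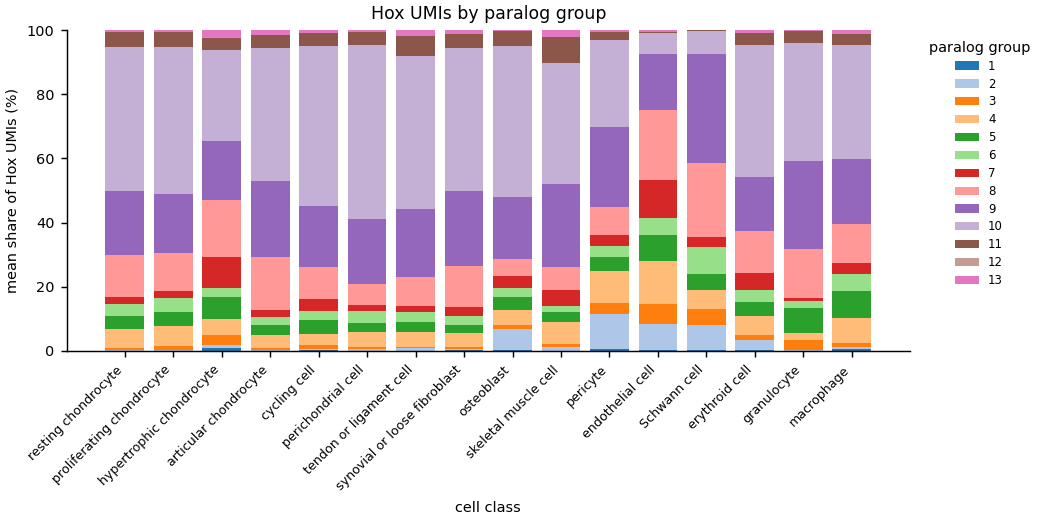
Mean share of Hox UMIs (percent, mean of 5 libraries) taken by each paralog group, stacked for 16 cell classes. Group 10 takes 45.1% in resting chondrocytes and 54.3% in perichondrial cells but 6.52% in endothelial cells, and group 11 stays at or under 8.37% in all of them.

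The second question was whether the position sampled along the limb differed between the labels. The share of group 11 in group 10 plus group 11 UMIs, averaged over the 10 named classes with the most cells, was 8.78% and 10.5% in WT 1 and 2 and 9.80%, 8.44% and 9.17% in mutant 1, 2 and 3. The labels overlapped, and the difference was -0.515 percentage points (two-sided exact permutation test, p = 0.6, with 0.1 the smallest that 2 against 3 libraries allow). Pooled over all cells the shares were 9.23%, 10.5%, 10.0%, 8.57% and 9.18%, each with an exact 95% interval of under a point in width, such as 8.88% to 9.58% in WT 1. These intervals cover counting error only. The intervals of the 2 libraries labelled WT did not overlap. In the mean over classes mutant 1, with Xist, and mutant 3, without it like both labelled WT, lay between those labelled WT. Mutant 2, with Xist, lay below both. The part of sex was not tested.

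The other readouts gave no separation over all cells. The group 13 share of group 9 to 13 UMIs was 1.39% and 1.71% against 1.67%, 1.34% and 1.60% (difference -0.0146 points, exact permutation test, p = 1). Tbx5, the forelimb partner of the hindlimb factor Tbx4, took 28.9% and 28.4% of the UMIs of the pair against 27.1%, 26.3% and 34.8% (difference 0.758 points, exact permutation test, p = 1), with mutant 3 above the other 4. All cells came from the hindlimb, and the Tbx5 share differed between classes. It was 41.4% to 50.9% in resting and 44.5% to 64.2% in proliferating chondrocytes, against 11.9% to 19.6% in tendon or ligament cells. The share over all cells therefore also moves with class makeup, and whether it reads limb position here was not tested. Across 6 ratios and the classes in which every library had a UMI of the genes, 99 relations were computed, 5 of them with a library whose ratio rested on 1 UMI. The smallest raw p was 0.1, in 10 relations, 2 of them among those 5, and the smallest adjusted p was 0.99 (exact permutation tests). Within classes the labels did not overlap in 15 of 93 relations (16.1%). For the group 11 share they did not overlap in 2 of 17 classes, with opposite signs. It was higher in mutant libraries in synovial or loose fibroblasts (7.05% and 8.12% against 9.52%, 9.52% and 10.5%) and lower in osteoblasts (10.5% and 11.5% against 9.36%, 7.63% and 8.02%). The share of Hoxa11 in Hoxa10 plus Hoxa11 did not overlap in 3 of 16 classes, all with higher mutant values (the mutant mean was higher in 8 of the 16), among them resting chondrocytes (16.8% and 17.2% against 23.0%, 18.4% and 21.8%, exact permutation test, p = 0.2). That of Hoxc11 in Hoxc10 plus Hoxc11 did not overlap in 4 of 17, 1 of them, articular chondrocytes, higher in mutant libraries. That of Hoxd11 did not overlap in 1 of 9 classes (lower in mutant libraries) and the group 13 share in 2 of 18 (1 higher). The Tbx5 share did not overlap in 3 of 16, all lower in mutant libraries, of which granulocytes and skeletal muscle cells were those with a ratio from 1 UMI and synovial or loose fibroblasts read 32.3% and 35.3% against 28.9%, 26.9% and 23.3%.

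**Figure D5:**
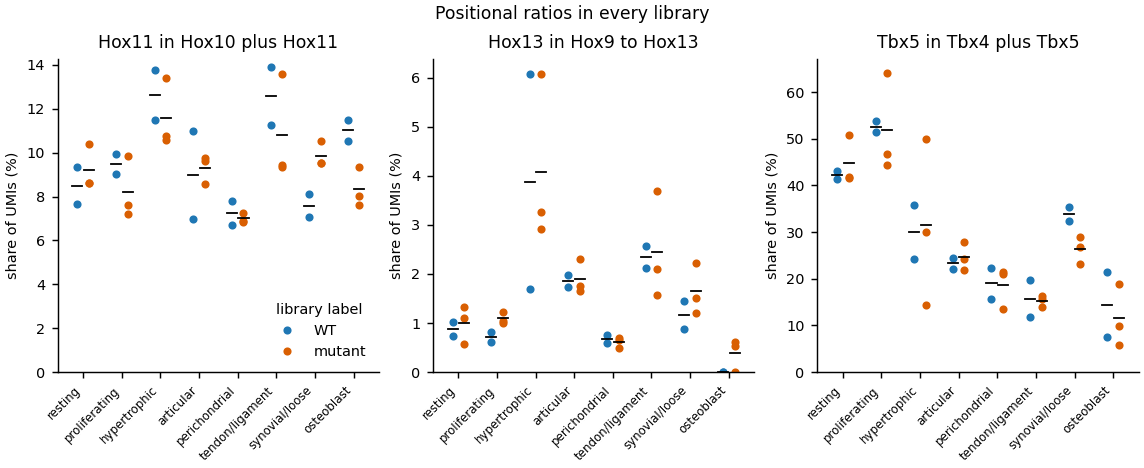
Positional ratios of limb genes (percent of UMIs) in each library (points, WT blue and mutant orange) in 8 cell classes. The panels show group 11 in groups 10 plus 11, group 13 in groups 9 to 13, and Tbx5 in Tbx4 plus Tbx5. The labels overlap in the group 11 share except in synovial or loose fibroblasts, where mutant libraries are higher, and osteoblasts, where they are lower.

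Within a pup the group 11 share differed between classes. In perichondrial cells it lay below resting chondrocytes in all 5 pups, by -0.950, -1.56, -3.53, -1.74 and -1.34 points (mean -1.82 ± 0.998, SD, two-sided exact sign permutation test, at the smallest p that 5 pups allow, which is over 0.05). The clusters did not share this order. Hoxa11 took 8.16%, 10.9%, 10.5%, 7.39% and 8.96% of Hoxa10 plus Hoxa11 UMIs in perichondrial cells and 16.8%, 17.2%, 23.0%, 18.4% and 21.8% in resting chondrocytes. Hoxc11 took 4.94% to 5.71% of Hoxc10 plus Hoxc11 UMIs in perichondrial cells and 3.07% to 3.52% in resting chondrocytes, the other way round. The ratio thus differed between cell classes.

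Between the labels no Hox row was called in any class. The test (edgeR quasi-likelihood, mutant against WT) was run in 11 classes and in all cells, with 4 to 34 Hox rows tested in each and 217 tests in all. The lowest adjusted p was 0.573. Pooled over the fits, 18 tests (8.29%) had an unadjusted p under 0.05, where 2.90% to 8.63% of all rows did in single fits. The share of all rows was not pooled in the same way, so the values are not like for like. Over all rows 0% were called in every fit except macrophages, where 0.0679% of 10303 were. DESeq2 also called no Hox row, but gave an adjusted p to 3 Hox rows in resting chondrocytes, 3 in macrophages and none in perichondrial cells, so it tested few there. Over all rows it called 33 of 4309 in resting and 35 of 15211 in proliferating chondrocytes. Among the rows that graded across the joint, the labels overlapped in Hoxd8 of articular chondrocytes (42.6 and 56.4 CPM against 53.5, 34.0 and 35.2 CPM). They did not overlap in Hoxc8 of the same class (17.6 and 16.4 against 13, 13.1 and 12.8 CPM), whose log2 difference of -0.35 ± 0.14 missed the threshold (edgeR, adjusted p = 0.777). Hoxc9 had the lowest adjusted p, in resting chondrocytes, with 20.4 and 17.0 CPM against 16.1, 14 and 12 CPM and a log2 difference of -0.38 ± 0.17. Depth moved with the label and cannot be told apart from it for these rows. Sex also differed in part between the labels, and its part in Hoxc8 and Hoxc9 was not tested. The makeup of the resting class moved with the label too. Cluster 19 gave 527 of 1131, 312 of 912, 334 of 1209, 289 of 1463 and 256 of 1648 resting cells, a higher share in both WT libraries. Hoxc9 stood at 19.98 CPM in cluster 19, against 14.3 in cluster 5 and 12.7 in cluster 36. The part of this makeup in the Hoxc9 difference was not tested.

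Genes that work with Hox proteins or mark limb position were read from lists of 9 cofactors, 16 limb genes and 9 noncoding transcripts of the clusters. Of 14 limb genes tested against resting chondrocytes, 8, 4 and 4 were called higher in perichondrial, tendon or ligament and articular cells, where 26.9%, 29.8% and 23.5% of all rows were, and 4, 5 and 6 lower, where 28.4%, 29.9% and 22.7% were. None of the 3 lists had a call between labels. Pbx3, a homeodomain cofactor of Hox proteins, was called higher than in resting chondrocytes in perichondrial (1.15 ± 0.09, log2 fold change ± SE), tendon or ligament (1.11 ± 0.09) and articular cells (0.63 ± 0.07). Meis3, of the second cofactor family, was higher in perichondrial (1.29 ± 0.21) and tendon or ligament cells (1.37 ± 0.22). Tbx5 was lower in all 3 (-1.46 ± 0.17, -1.71 ± 0.13 and -0.89 ± 0.13), while Tbx4, which marks the hindlimb, was higher (0.24 ± 0.07, 0.35 ± 0.09 and 0.39 ± 0.06). Shox2, needed for the bones of the thigh and upper arm, was higher in perichondrial cells (0.55 ± 0.07) and lower in articular chondrocytes (-0.45 ± 0.04). Hand2 was lower in perichondrial cells (-1.36 ± 0.24) and higher in articular chondrocytes (1.55 ± 0.10). Among the noncoding transcripts, Hoxa11os, antisense to Hoxa11, was higher in tendon or ligament cells (0.88 ± 0.18), the class with most Hoxa11, and was not refitted without cluster 22. Hoxd3os1 was lower in perichondrial cells (-0.95 ± 0.20) and higher in articular chondrocytes (0.71 ± 0.14). Whether counting used strand was not given in the sources used here, so reads of Hoxa11os and Hoxa11 may not be told apart.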

How the data were processed

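Single cells of femoral and tibial growth plates of 5 pups (2 labelled WT, 3 labelled mutant) were captured on BD Rhapsody. The authors made the deposited UMI counts per gene and cell with the BD Rhapsody pipeline. The submitters' processing notes name mm10. The annotation and the use of strand were not given in the sources used here.

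Barcodes with 200 to 6000 genes and at most 10% mitochondrial UMIs were kept. Cells were clustered on Pearson residuals (theta 100) of 3000 variable genes, without Hox rows or their companion genes, with 50 components, 20 neighbours and Leiden resolution 1.5 (scanpy 1.11.5, leidenalg 0.10.2), and clusters were named from marker lists. No cells were removed as doublets in the main analysis. Leaving out the cells with the highest Scrublet scores, or the tendon or ligament cluster led by heat shock genes, were alternatives added after seeing the data. UMI counts were summed per pup and class and tested with edgeR 4.0.16 (quasi-likelihood test with TMM factors and its default filter on low counts, Benjamini-Hochberg threshold 0.05), with the pup as a block between classes. Blocks pair classes of the same animal. The SE given with an edgeR log2 fold change is its size divided by the square root of the F statistic of the test. Ratios were compared by exact permutation over pups. Each pup is 1 library, so pups and not cells are the replicates. Between classes the block takes out differences between pups, and the p-values rest on the variation left within pups. The scripts were tested on simulated data, in which the share of false calls lay above the nominal one. Depth ran from 117746735 to 183322632 UMIs per library, and counting intervals are exact binomial (Clopper-Pearson). Alternatives were DESeq2 1.42.0, no filter on low counts, no pup block, Leiden resolution 0.8 and leaving out each library. Hox rows of groups 9 to 13 and those reaching a mean of 20 CPM in a named class were named with values, the others by range. The members, lists and tests were chosen with earlier results of these data known. Gene positions came from GENCODE M21 and promoter windows from RefSeq (GRCm38.p6). Some results on the cofactor list are not reported here.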

Additional observations from a re-analysis of the deposited data

Results flagged for a closer look

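The difference between labels in the group 11 share of group 10 plus group 11 UMIs ran in opposite directions in 2 cell classes, with every mutant library above both WT libraries in synovial or loose fibroblasts and below both in osteoblasts. The difference in the first class minus that in the second was 4.94 percentage points. Per pup, the share in synovial or loose fibroblasts minus that in osteoblasts was -3.50 and -3.35 points in WT 1 and 2 and 0.162, 1.90 and 2.50 points in mutant 1, 2 and 3. An exact permutation test over the pups gave p = 0.1, the smallest that 2 against 3 libraries allow. The pair of classes was picked because the labels did not overlap in them, with opposite signs. This outcome was therefore fixed in advance, and nothing is drawn from it. Behind each library's value stood 141 to 756 osteoblasts. No osteoblast class was found at Leiden resolution 0.8, so the value has no check there. The part of depth, sex and class makeup in it was not tested.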

How the results depend on the processing

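The 3 contrasts of classes gave 36 calls of Hox rows, and 1 gene can count in more than 1 contrast. Of these calls, 24 were kept under every alternative that tested them (9 of 12 in perichondrial, 7 of 13 in tendon or ligament and 8 of 11 in articular cells). Hoxc10 lost its call in all 3 contrasts under at least 1. Those kept included the calls of Hoxb2, Hoxb4 and Hoxb9, which passed the main filter only through the class where they were higher. Without the pup block (no replicate block) 9, 9 and 8 rows were called. Leaving out 1 library gave 9 to 12, 8 to 13 and 9 to 11 rows, the 8 without WT replicate 1. Without the heat shock cluster 12 rows were called in tendon or ligament cells, Hoxa9, Hoxa10 and Hoxa11 not among them. The classes of perichondrial cells, osteoblasts and chondrocytes of no zone were absent at Leiden resolution 0.8, so their comparisons were not run there. No Hox row was called between labels in 104 alternative fits, which called 0% to 1.47% of all rows (at most 0.698% with no filter). The label difference in the group 11 share ran from -1.39 to 0.360 points when 1 library was left out, positive without WT replicate 2. That of the group 13 share ran from -0.176 to 0.147, positive without WT replicate 2 and, at 0.0848, without mutant replicate 2. That of the Tbx5 share ran from -1.93 to 2.31, negative without mutant replicate 3. The perichondrial minus resting group 11 share was 3.85 points with Hoxd rows only (exact sign permutation test, p = 0.5625) and -2.04 to -1.40 without 1 pup. The cause was not tested. No paired analysis was possible between labels because each pup has 1 label. Rows under 1 CPM rest on few UMIs.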

Other observations

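Most of the pairs of genes compared were found in the same cells more often than their shares within each class and library give, Hox neighbours or not. With cells thinned to 3000 UMIs in 10 classes, Hoxa11 and Hoxa13 shared 47 cells where 15.4 were expected (ratio 3.05, 2.19 to 4.71 over the 5 libraries), and Hoxd8 and Hoxd9 shared 371 where 198 were (ratio 1.87, 1.75 to 2.29). Hoxa11 and Hoxa10 had a ratio of 1.45 (1.29 to 1.68) and Hoxa9 and Hoxa10 of 1.26 (1.19 to 1.34). Across clusters the ratio of Hoxa11 with Hoxc11 was 1.29 on 26 cells, and ran from 0.625 to 2.22 over the libraries. Within the Hoxc cluster, Hoxc9 and Hoxc10 stood at 1.05 (0.971 to 1.13). Pairs on different chromosomes gave 1.09 (1.04 to 1.15) for Hoxa10 with Hoxc10, 1.29 (1.12 to 1.54) for Hoxc11 with Shox2, 1.12 (1.05 to 1.22) for Hoxa10 with Shox2 and 0.998 (0.930 to 1.15) for Hoxa11 with Shox2. Differences between cells of a class, such as the cluster led by heat shock genes, also enter these ratios, and their part was not tested.

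Over the 40 cell clusters the genes whose level was most like the sum of the group 11 genes, among 6319 genes compared, were Sspn (Pearson r = 0.857), Zfp260 (0.845), Irak1bp1 (0.825), Pgrmc2 (0.819) and Cep170b (0.816). Clusters share libraries and depth, and 1.93% of the genes compared had an r above 0.7 (0.7 was chosen as a round value), so this is a description.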
